A study of Homo sapiens with 6 samples.

Results

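Interferon-stimulated genes are the genes that cells switch on when an interferon binds its receptor. They were taken as 40 gene symbols, and 39 of them were read by a probe set that names that gene alone, out of 19775 such genes on the array. No array value of STAT2 was analysed here, and it entered the promoter search alone. The 3 Vorinostat samples were OCI-AML3 cells given 1 μM Vorinostat (SAHA), an inhibitor of histone deacetylases, for 24 h. The 3 DMSO samples were the same cells given the solvent alone for 24 h. This human line from an acute myeloid leukaemia carries a mutated NPM1 gene, so all 6 samples share that mutation, and each was hybridised to an Affymetrix HG-U133 Plus 2.0 array. Nothing in the sources states that replicates were grown as separate cultures, and the p-values therefore cover the spread among these arrays alone, which may be technical.

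Type I interferons bind a receptor made of IFNAR1 and IFNAR2, whose kinases JAK1 and TYK2 phosphorylate STAT proteins. These join IRF9 and bind a short element, the interferon-stimulated response element, in the promoters of their targets. The products sense foreign nucleic acid, block steps of viral growth, conjugate the ubiquitin-like protein ISG15 or feed back on the response.

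The element is shown first because it is the best known control sequence of such genes, and it was found in most, though not all, of the windows of members. RefSeq promoter windows (GRCh38.p14, 250 bases before to 50 bases after a start) were matched by symbol for 33 of the 40 members, and windows of USP18, IRF7, OASL, MX2, IFIT2, OAS2 and TRIM22 were not matched. The core letters of the element were searched as TTTC, any 2 bases and TTTC again, on both strands (GAAA, any 2 bases and GAAA on the other), and matches were allowed to share bases. A match was found for 22 of the 33 members (66.7%), against 1195 of all 27305 genes with a window (4.38%) and 3.57% of all windows. Each line gives 60 bases of the gene's strand, 5′ to 3′, with the matches in capitals, first for 5 members above a log2 value of 3 on Vorinostat replicate 1 and then for 3 members that stayed below it on every array.
IFIT1, chr10:89392482-89392541, plus strand: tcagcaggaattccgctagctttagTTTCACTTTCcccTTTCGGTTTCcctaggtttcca
IFIT3, chr10:89332410-89332469, plus strand: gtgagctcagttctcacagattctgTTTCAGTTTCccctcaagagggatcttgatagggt
ISG15, chr1:1013359-1013418, plus strand: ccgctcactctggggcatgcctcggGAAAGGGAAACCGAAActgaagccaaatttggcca
IFI6, chr1:27672314-27672373, minus strand: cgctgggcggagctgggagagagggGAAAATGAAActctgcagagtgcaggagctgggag
OAS3, chr12:112938306-112938365, plus strand: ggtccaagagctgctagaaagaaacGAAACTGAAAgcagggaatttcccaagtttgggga
IFI27, chr14:94110603-94110662, plus strand: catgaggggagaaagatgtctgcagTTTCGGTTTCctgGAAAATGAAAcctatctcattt
GBP1, chr1:89065301-89065360, minus strand: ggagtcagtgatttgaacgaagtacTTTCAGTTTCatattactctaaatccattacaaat
IFITM1, chr11:313975-314034, plus strand: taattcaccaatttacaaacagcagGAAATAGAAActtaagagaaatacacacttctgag
A match is a description of the letters and not a binding site. Of the members with a window and an array value, 14 of 22 above a log2 value of 3 on Vorinostat replicate 1 held a match. So did 8 of 10 that were not above it. STAT2 had a window but no array value. The members without a matched window were, except for TRIM22, all above 3 on that array. High members are thus under-represented here, and whether a match follows the array values was not settled.

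The interferon-stimulated genes were high on a single array, Vorinostat replicate 1. Of the 39 members, 28 lay above a log2 value of 3 there (71.8%), against 26.1% of the other genes on that array. On Vorinostat replicates 2 and 3, 1 member each lay above 3, and on DMSO replicates 1, 2 and 3 it was 7, 1 and 0. The median member had 4.87, 1.74 and 1.76 on Vorinostat replicates 1, 2 and 3 and 2.19, 1.70 and 1.71 on DMSO replicates 1, 2 and 3. Thus 34 of the 39 members had their highest value of the 6 arrays on Vorinostat replicate 1, against 17.2% of all genes, and 21 were above 3 there and on no other array, against 2.23% of all genes. As RNA of whole cultures was measured, more cells that express a gene and more of its RNA per cell cannot be told apart. The values are log2 values as deposited. The level of 3 stands for a probe set read clearly above the bulk of each array, whose median over all probe sets was between 1.55 and 1.66.

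The signal of the arrays differed by replicate number more than by treatment. Vorinostat replicates 1, 2 and 3 had 8158, 2769 and 3274 probe sets above 3, and DMSO replicates 1, 2 and 3 had 8645, 3731 and 2761. Both number 1 arrays were therefore brighter than the other 4, and DMSO replicate 1 had more probe sets above 3 than Vorinostat replicate 1 although most members were under 3 on it. Values are given beside each other by replicate number for this reason. Of 9 measured markers of myeloid leukaemia cells, NPM1, LYZ, CEBPA and MEIS1 were above 3 on both number 1 arrays, while MPO, KIT, SPI1, ANPEP and CSF3R were under 3 on all 6 arrays.

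**Figure D1:**
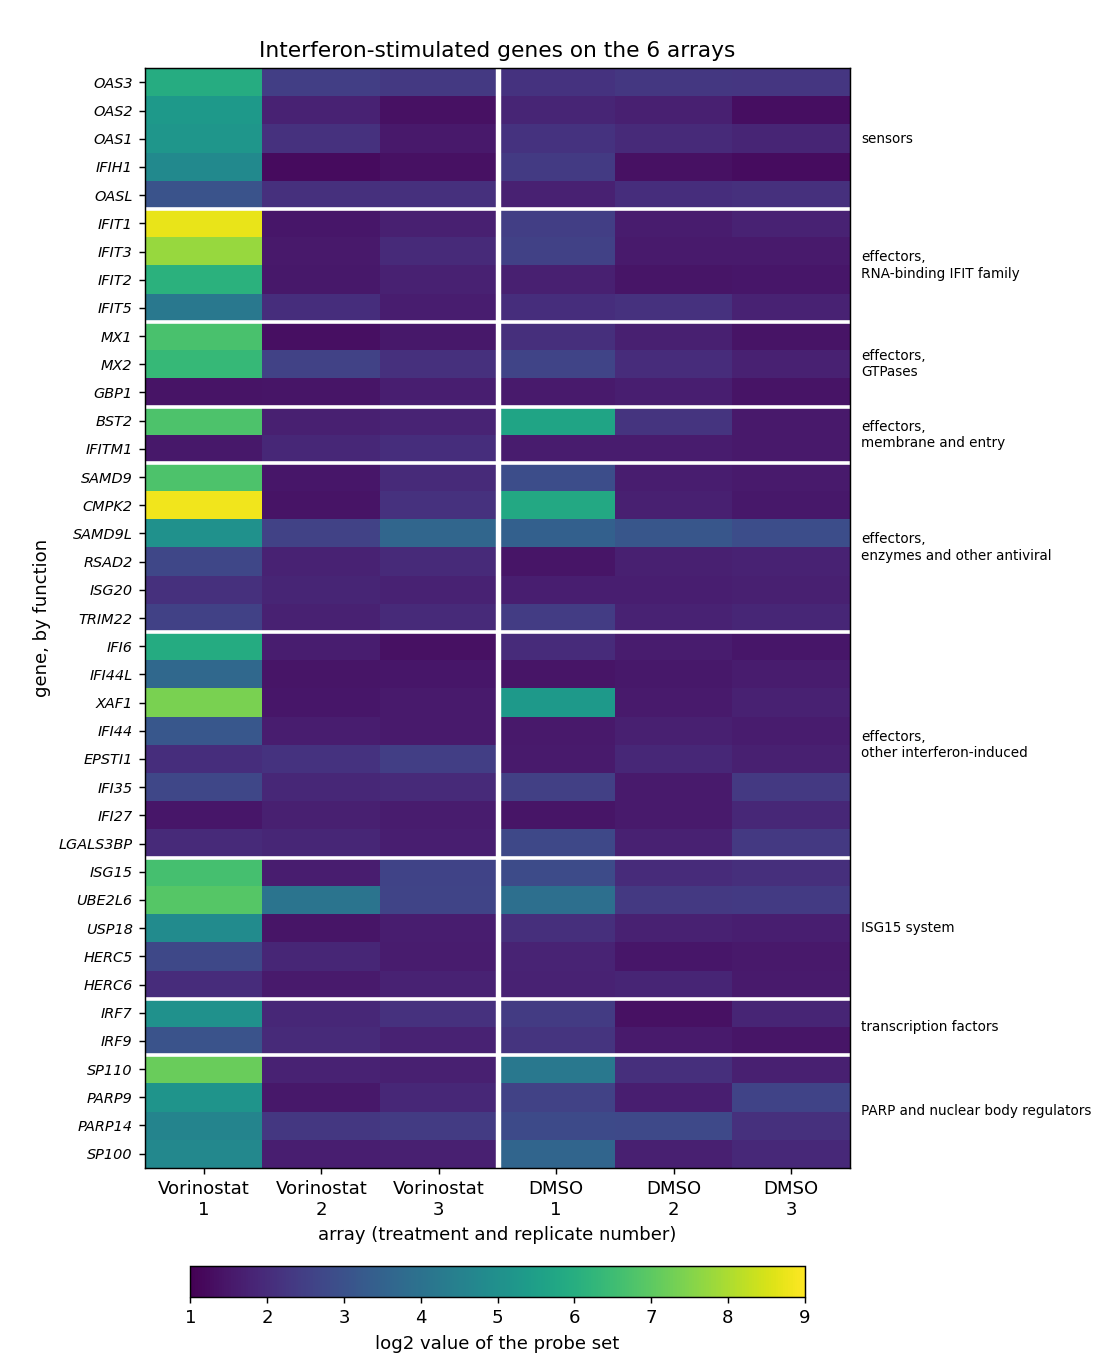
Log2 value of the 39 interferon-stimulated genes on each array, with genes in rows by function and the 3 Vorinostat arrays to the left of the 3 DMSO arrays. The column of Vorinostat replicate 1 holds 28 genes above 3, DMSO replicate 1 holds 7, and no other array holds more than 1.

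Over the 3 arrays of each treatment, no interferon-stimulated gene was called. The study's own threshold (a change of more than 2-fold and an unadjusted p below 0.05) was passed by 0 of 39 members in the higher direction, where 0.0455% of all genes passed it, and by 0 of 39 in the lower direction, where 0.0506% passed. These shares came from limma on the deposited values without further normalisation. In that fit, 9 of all 19775 genes passed in the higher direction and 10 in the lower. The study lists many more genes at its threshold, from values it had normalised itself. The fit therefore did not recover most of those calls, and its counts of members are not taken from the study. The study's supplementary list of these genes names no member in either direction. No member had an adjusted p under 0.05 (limma, Benjamini-Hochberg), as for 0% of all probe sets, and the lowest adjusted p of a member was 1.00. An unadjusted p under 0.05 was reached by 1 member, EPSTI1, whose change was under 2-fold. The log2 fold change, Vorinostat minus DMSO, was positive for 36 members and negative for IFI27, GBP1 and LGALS3BP, with a median of 0.60 against -0.02 over all genes. Its standard error was between 0.118 (GBP1) and 2.36 (CMPK2). Without Vorinostat replicate 1, which leaves the bright DMSO replicate 1 in the fit, the median of the members was -0.13.

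Within replicate number 1 the difference was large and spread over most of the list. Vorinostat replicate 1 exceeded DMSO replicate 1 by over 2-fold for 28 of the 39 members, against 3.07% of all genes, and was over 2-fold lower for 0, against 5.56%. The median difference was 2.16 log2 units (all genes -0.01), with a range of -0.77 to 6.24, and 1.32 after quantile normalisation. IFIT1, IFIT3, MX1 and IFIT2 had the 4 largest positive differences of all 19775 genes. Members made up 10 of the 20 largest and 20 of the 100 largest, and 11 members lay over 3 log2 units, as did 30 genes (0.152%) in all. With 1 array a treatment this difference has no replicate check of its own.

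The other replicate numbers did not show it. In number 2, UBE2L6 alone was over 2-fold higher (1 of 39, against 1.85% of all genes) and 0 were over 2-fold lower (against 7.58%), with a median difference of -0.03. In number 3, 0 of 39 were over 2-fold higher (against 3.38%) and 0 lower (against 1.37%), with a median of 0.09. Of the 28 members over 2-fold higher in number 1, 27 were within 2-fold in both other numbers. Among the 156 member values on the 4 arrays of numbers 2 and 3, 3 were above a log2 value of 3, namely UBE2L6 on Vorinostat replicate 2 and SAMD9L on Vorinostat replicate 3 and DMSO replicate 2. With both number 1 arrays left out, the log2 fold change was positive for 20 members and negative for 19, with a median of 0.01. With nearly all member values under 3 on these 4 dimmer arrays, small differences of either sign were close to given. A rise too small to lift a gene above 3 could have been missed there.

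**Figure D2:**
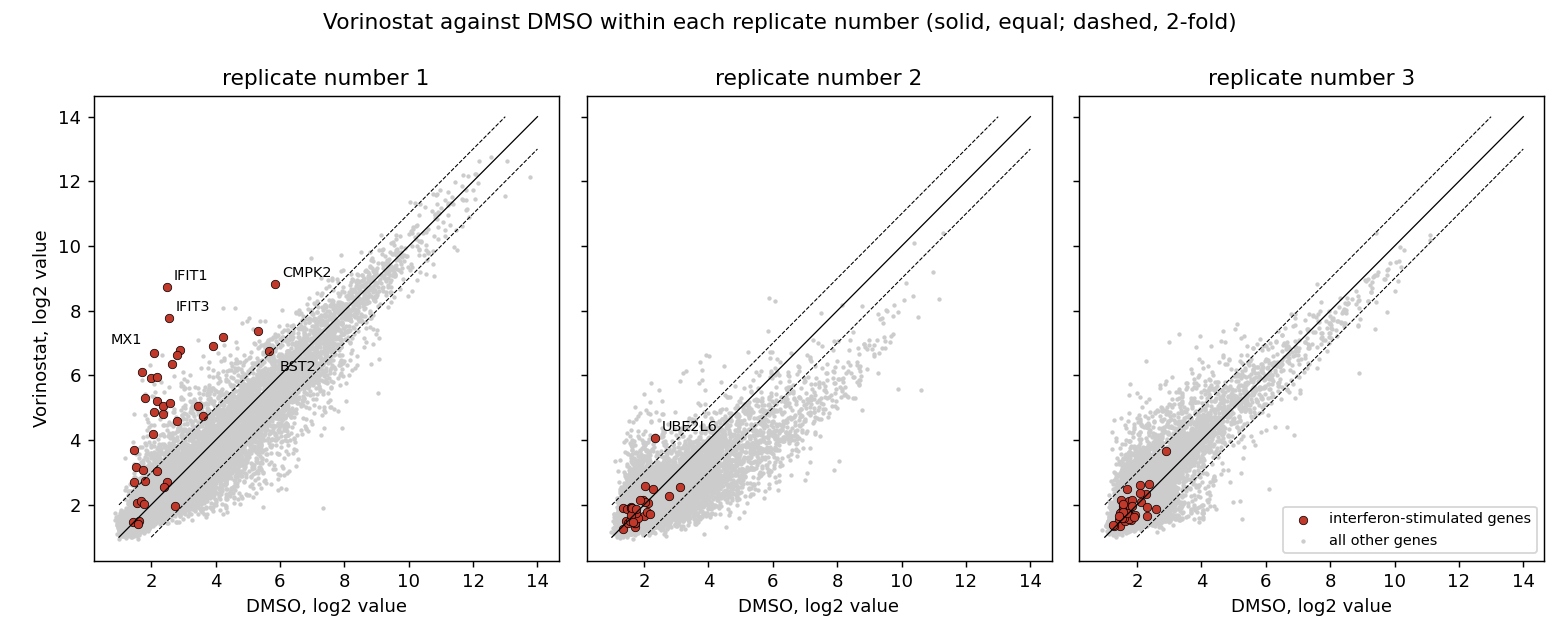
Log2 value with Vorinostat (vertical axis) against DMSO (horizontal axis) for every gene, with 1 panel per replicate number and the interferon-stimulated genes in red. In number 1, 28 of the 39 members stand above the upper dashed line of a 2-fold difference, and in numbers 2 and 3 they gather at low values with 1 and 0 above it.

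Among the sensors, all 5 were over 2-fold higher on Vorinostat replicate 1 than on DMSO replicate 1, with a median difference of 3.03 log2 units. OAS3 makes the short oligoadenylates that activate RNase L. It had 5.97, 2.48 and 2.33 with Vorinostat, against 2.19, 2.29 and 2.27 with DMSO. Every Vorinostat value of OAS3 thus lay above every DMSO value, although replicates 2 and 3 differed by only 0.19 and 0.06. Its log2 fold change was 1.34 (standard error 1.02, adjusted p = 1.00 by limma), but 0.15 without Vorinostat replicate 1. With the mean of its 2 probe sets it was 0.78. OASL, a relative of the OAS enzymes that enhances RIG-I signalling, had 3.06, 2.10 and 2.09 against 1.75, 2.04 and 2.11, and these groups overlapped. The other probe set of OASL had 3.51, 1.94 and 1.83 against 1.53, 1.51 and 1.69, and its groups did not overlap. OAS1, OAS2 and IFIH1, the last a receptor for long double-stranded RNA, differed by 3.03, 3.48 and 2.43 in number 1. Their differences in the other numbers lay between -0.29 and 0.20.

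The IFIT family, which binds viral RNA that lacks the marks of the cell's own messages, held the highest differences. IFIT1 had 8.72, 1.49 and 1.69 with Vorinostat, against 2.48, 1.62 and 1.78 with DMSO. Its value on Vorinostat replicate 1 was 6.24 log2 units above DMSO replicate 1, while the differences of replicates 2 and 3 were -0.13 and -0.09. IFIT3, which stabilises IFIT1, had 7.78, 1.55 and 1.95 against 2.54, 1.58 and 1.59. For IFIT2 the values were 6.10, 1.503 and 1.74 against 1.70, 1.44 and 1.49. In each of these genes only Vorinostat replicate 1 stood apart. The log2 fold changes of IFIT1, IFIT3 and IFIT2 were 2.01, 1.85 and 1.57 with standard errors of 2.06, 1.75 and 1.29. IFIT5 differed by 2.16 in number 1. Without Vorinostat replicate 1, the fold changes of IFIT1 and IFIT3 were -0.37 and -0.16, and without both number 1 arrays they were -0.11 and 0.16.

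Of the 3 GTPases, MX1 and MX2 were over 2-fold higher in number 1 and GBP1 was not. MX1, which traps viral nucleocapsids, had 6.70, 1.33 and 1.52 with Vorinostat, against 2.08, 1.71 and 1.43 with DMSO. MX2, a restriction factor of HIV at the nuclear pore, had 6.36, 2.58 and 2.11 against 2.63, 2.03 and 1.74, so that Vorinostat was the higher in each number, by 3.72, 0.55 and 0.38. The values of MX2 in the 2 treatments nevertheless overlapped. GBP1, a guanylate-binding protein best known as a target of interferon gamma, stayed between 1.42 and 1.67 on all 6 arrays.

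Antiviral enzymes and related effectors were mixed. SAMD9, a restriction factor of poxviruses, had 6.78, 1.48 and 1.95 with Vorinostat, against 2.88, 1.64 and 1.56 with DMSO. Its neighbour and paralogue SAMD9L had 5.05, 2.56 and 3.65 against 3.45, 3.13 and 2.89, and was the member above 3 on most arrays, with 4 of 6. CMPK2, a mitochondrial nucleotide kinase, had 8.83, 1.42 and 2.15 against 5.84, 1.71 and 1.51. CMPK2 was thus the highest member on both number 1 arrays, and under 3 on the other 4. RSAD2 (viperin), an enzyme that makes a chain-terminating nucleotide and neighbours CMPK2, had 2.71, 1.77 and 1.94 against 1.46, 1.71 and 1.77, all under 3. ISG20, an RNA exonuclease, had 2.10, 1.82 and 1.75 against 1.68, 1.66 and 1.70. The groups of ISG20 did not overlap, but its log2 fold change was 0.21 (standard error 0.122) with all values under 3. TRIM22, a ubiquitin ligase, differed by 0.15 in number 1.

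Of the membrane effectors, BST2, which tethers budding virions to the cell, had 6.76, 1.70 and 1.81 with Vorinostat, against 5.66, 2.19 and 1.53 with DMSO. It was already high on DMSO replicate 1, and the difference in number 1 was 1.10. IFITM1, which hinders viral entry, stayed under 3 on all 6 arrays and differed by -0.11 in number 1.

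Of the remaining interferon-induced effectors, 4 of 8 were over 2-fold higher in number 1. XAF1, an antagonist of the apoptosis inhibitor XIAP, had 7.38, 1.495 and 1.57 with Vorinostat, against 5.33, 1.57 and 1.74 with DMSO, so it too was high on both number 1 arrays. IFI6, IFI44L and IFI44 differed by 3.92, 2.25 and 1.64 in number 1. EPSTI1 had 2.04, 2.16 and 2.47 against 1.57, 1.89 and 1.69. The groups of EPSTI1 did not overlap, and it was the member with the smallest unadjusted p. Its log2 fold change was 0.51 (standard error 0.158, unadjusted p = 0.0208, adjusted p = 1.00 by limma), and all of its values were under 3. The other probe set of EPSTI1 had a log2 fold change of -0.00585, and the mean of both gave 0.25 (unadjusted p = 0.237 by limma). LGALS3BP, a secreted glycoprotein, had 1.96, 1.86 and 1.67 against 2.73, 1.74 and 2.32, with the largest negative difference in number 1 of any member. IFI27 and IFI35 differed by 0.04 and 0.21 in number 1, and neither was above 3 on any array.

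The ISG15 system covers the modifier, the enzymes that attach it and the protease that removes it. ISG15 itself had 6.65, 1.65 and 2.60 with Vorinostat, against 2.81, 2.00 and 2.09 with DMSO. UBE2L6, the conjugating enzyme, had 6.90, 4.07 and 2.65 against 3.91, 2.33 and 2.36. It was the only member higher by over 2-fold in number 2 as well, with differences of 2.99, 1.74 and 0.28. HERC5, the main ligase, had 2.74, 1.87 and 1.61 against 1.79, 1.47 and 1.53, and USP18, the protease, had differences of 2.79, -0.29 and -0.01. HERC6, which serves as the ligase in mice, differed by 0.26 in number 1.

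UBE2L6 was also the member whose call depended on the pairing of the arrays. Its log2 fold change was 1.67 (standard error 1.17, unadjusted p = 0.207 by limma). It was 0.49 without Vorinostat replicate 1 and 1.01 without both number 1 arrays. With the replicate number as a block the standard error was 0.550 and the unadjusted p = 0.0367, which passes the study's threshold, with an adjusted p = 0.887. In that fit 1 of 39 members passed in the higher direction, against 0.197% of all genes. Over the 3 numbers, 11 members had the same positive sign each time (OAS3, OAS2, IFIT2, MX2, UBE2L6, HERC5, IRF7, IRF9, RSAD2, EPSTI1 and ISG20), against 13% of all genes, and 0 had the same negative sign, against 13.7%. The groups did not overlap, with Vorinostat higher, for 3 members (OAS3, EPSTI1 and ISG20), against 2.3% of all genes, and for 0 in the lower direction, against 1.95%.

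Of the transcription factors, IRF7, which amplifies interferon production, had 5.05, 1.90 and 2.14 with Vorinostat, against 2.38, 1.35 and 1.83 with DMSO. Vorinostat was the higher in each number, by 2.67, 0.55 and 0.31, although the values of the 2 treatments overlapped. IRF9, the DNA-binding subunit of the complex that recognises the response element, had 3.05, 1.94 and 1.76 against 2.19, 1.58 and 1.46. Its differences were 0.86, 0.36 and 0.29, with 1 value above 3.

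All 4 members of the PARP and nuclear body group were over 2-fold higher in number 1. SP110, a nuclear body protein, had 7.18, 1.78 and 1.72 with Vorinostat, against 4.22, 2.09 and 1.71 with DMSO. PARP14, an ADP-ribosyltransferase, had 4.604, 2.29 and 2.38 against 2.79, 2.76 and 2.09. In both, Vorinostat replicate 2 was lower than DMSO replicate 2. SP100, another nuclear body protein, and PARP9, a relative of PARP14, had differences of 1.11 and 2.57 in number 1 and of -0.24 and -0.72 in number 3.

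**Figure D3:**
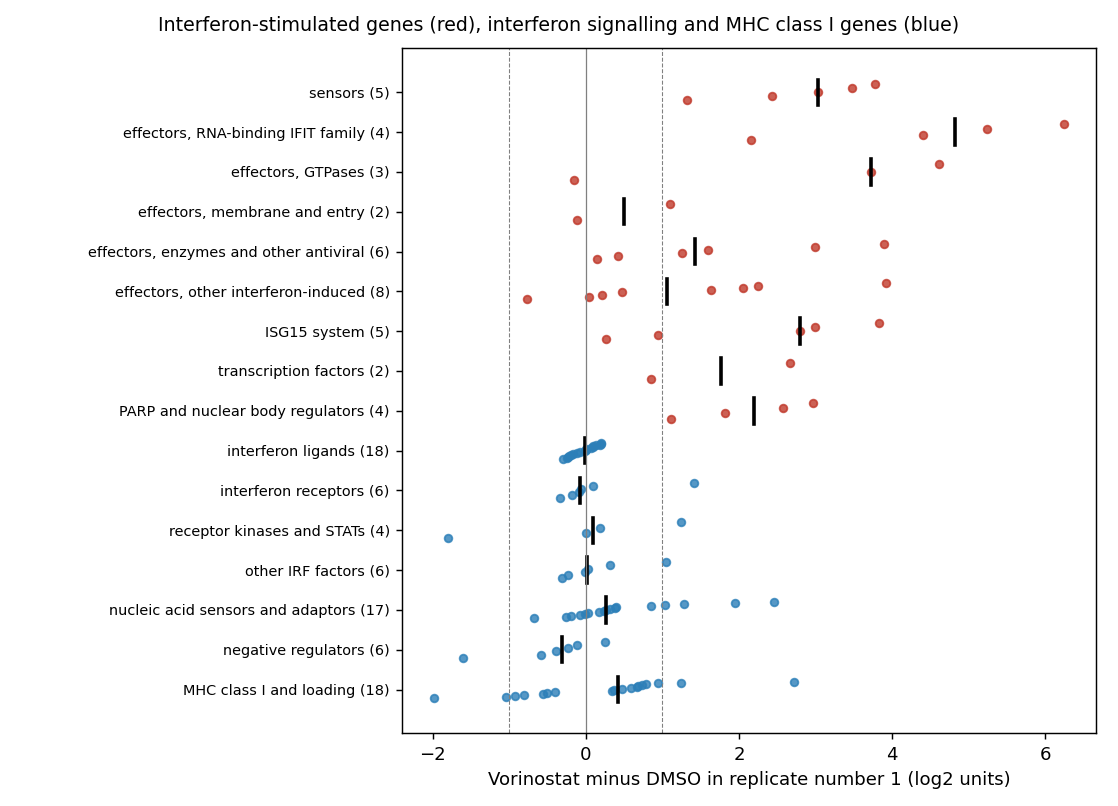
Difference between Vorinostat replicate 1 and DMSO replicate 1 in log2 units for each gene, by function, with interferon-stimulated genes in red, interferon signalling and MHC class I genes in blue, the number of genes in brackets and a bar at the median. Dashed lines mark 2-fold, and the medians lie at 4.82 for the IFIT family, 3.03 for the sensors and 2.79 for the ISG15 system, against -0.01 for the ligands and 0.26 for the other sensors and adaptors. All ligands were under a log2 value of 3 on both of these arrays.

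The other probe sets of the members were mixed. Of 73 probe sets naming a member alone, 34 were not the brightest of their gene. In number 1, 27 of the 34 had a positive difference and 13 were over 2-fold higher, with a median of 0.31, and in numbers 2 and 3, 0 were over 2-fold higher. Of these 34, 21 were not above 3 on any array, and their differences in number 1 lay between -0.43 and 1.05 with a median of 0.14. The remaining 13, from 9 genes, were above 3 on Vorinostat replicate 1 and held 12 of those over 2-fold higher, a share that their level on that array largely fixed. The second probe set of IFIT3 had 6.51, 1.95 and 1.91 with Vorinostat, against 1.96, 2.02 and 1.79 with DMSO. For XAF1 the brightest probe set differed by 2.05 in number 1 and another by 3.86, at 6.40 on Vorinostat replicate 1 and 2.54 on DMSO replicate 1.

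Of the genes other than the members at log2 values of 7 to 9 on Vorinostat replicate 1, most were above 3 on the dimmer Vorinostat arrays too. Among genes at log2 values of 7 to 9 on that array, 0 of 5 members were above 3 on Vorinostat replicate 2 and 0 of 5 on replicate 3, against 68.6% and 84.2% of the 621 other genes. At values of 6 to 7, it was 1 of 7 and 0 of 7 members, against 37.4% and 58.3% of 629 other genes. At values of 5 to 6, it was 0 of 7 and 1 of 7 members, against 24.5% and 39.9% of 922 other genes. The bins were set by the array on which the members were high, so the members' low shares describe the same pattern again and are not a test of it. At values of 3 to 6, most other genes were under 3 on both dimmer arrays too, as they were at 6 to 7 on replicate 2. A difference between members and other genes was therefore not detectable by this level there.

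**Figure D4:**
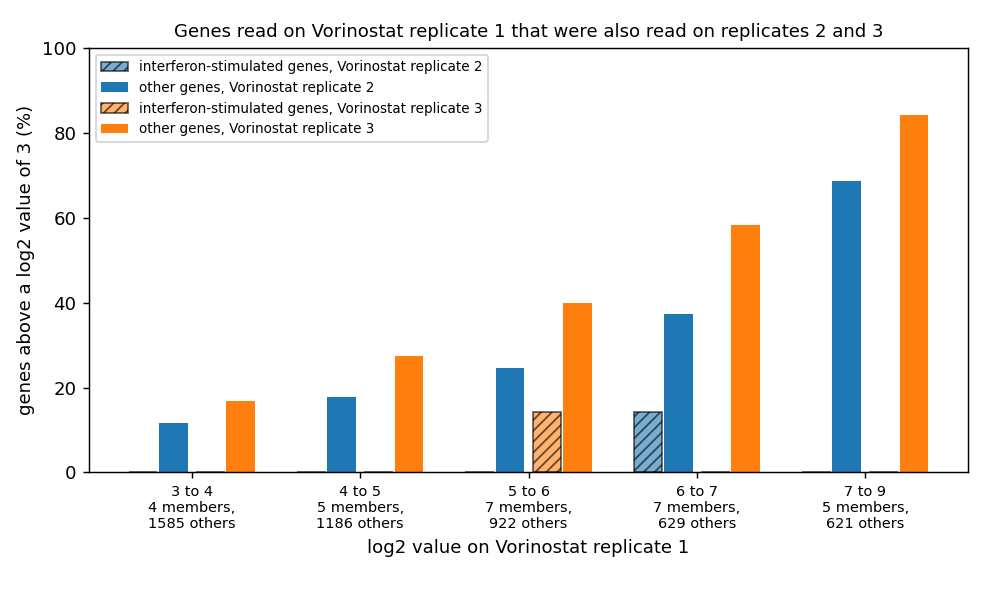
Percentage of genes above a log2 value of 3 on Vorinostat replicates 2 (blue) and 3 (orange), by their log2 value on Vorinostat replicate 1, with interferon-stimulated genes hatched and other genes filled. At values of 7 to 9 the bars of the members are at 0, against 68.6% and 84.2% for the other genes.

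The genes that lead to the interferon response had median differences near 0 in each number. Of 62 such genes listed (ligands, receptors, kinases and STAT proteins, other IRF factors, nucleic acid sensors and adaptors, and inhibitors of the pathway), 57 were measured and 0 were called. In number 1, 7 of the 57 were over 2-fold higher, against 3.07% of all genes, and 2 were over 2-fold lower, against 5.56%. In number 2, 0 were higher (1.85% of all genes) and 5 lower (7.58%), and in number 3, 0 were higher (3.38%) and 3 lower (1.37%). The medians were 0.01, -0.03 and -0.03. Of the 57, 34 were not above 3 on any array, so these medians rest mostly on genes not read clearly above the bulk of each array. The 18 measured interferon ligands reached at most 1.77 on Vorinostat replicate 1 and 1.73 on DMSO replicate 1, and 1 ligand value in all, that of IFNB1 on DMSO replicate 3 (3.14), was above 3. IFNAR2, a subunit of the type I receptor, had 4.20, 3.98 and 4.15 with Vorinostat, against 4.29, 4.21 and 4.13 with DMSO, so it differed little between any of the arrays.

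Within that list EIF2AK2 and RIGI, which are themselves induced by interferon, had the largest positive differences in number 1. EIF2AK2 (PKR), the kinase that halts translation on double-stranded RNA, had 6.22, 1.61 and 1.46 with Vorinostat, against 3.76, 1.37 and 1.38 with DMSO. RIGI, a receptor for viral RNA with free triphosphate ends, had 5.18, 2.64 and 2.43 against 3.22, 2.04 and 2.06. ADAR, which edits double-stranded RNA, had 8.72, 3.30 and 4.33 against 7.44, 3.77 and 6.01, so it was higher with Vorinostat in number 1 alone. IRF8, a myeloid factor and the brightest of the list, had 9.55, 6.08 and 6.86 against 9.86, 7.65 and 7.04.

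MHC class I genes are also raised by interferon. Of 18 measured genes of antigen display and loading, 2 were over 2-fold higher in number 1, against 3.07% of all genes, and 2 were over 2-fold lower, against 5.56%. The medians were 0.43, -0.996 and 0.12 in numbers 1, 2 and 3. A list of 11 housekeeping genes, which shares B2M with the MHC class I list, had medians of 0.02, -1.70 and -0.24. These housekeeping genes were thus also lower on Vorinostat replicate 2 than on DMSO replicate 2. HLA-B had 10.1, 6.22 and 7.998 with Vorinostat, against 9.44, 8.69 and 8.39 with DMSO.

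Some markers of other cell types were also higher on Vorinostat replicate 1. Of 25 measured, 3 were above 3 there and 2 on DMSO replicate 1, and 2 were over 2-fold higher in number 1. COL1A2 (fibroblasts) had 4.98, 2.31 and 2.72 with Vorinostat, against 2.72, 2.62 and 2.44 with DMSO, and PECAM1 (endothelium and some leukocytes) had 5.00, 2.56 and 2.90 against 3.05, 2.39 and 2.34. The other listed markers of these 2 cell types, COL1A1, DCN, CDH5 and VWF, were under 3 on all 6 arrays. The 3 fibroblast markers summed on the linear scale to between 12.5 and 37.4 on the Vorinostat arrays and between 11.9 and 13.1 on the DMSO arrays, and the 3 endothelial markers to between 11.96 and 37.0 on the Vorinostat arrays and between 10.4 and 13.1 on the DMSO arrays. Of the markers of plasmacytoid dendritic cells, which make much interferon, CLEC4C, LILRA4 and IL3RA were under 3 on every array, while TCF4 had 5.54, 2.64 and 3.98 with Vorinostat, against 6.05, 4.0 and 1.79 with DMSO. The part of other cells in the values of Vorinostat replicate 1 was not tested.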

How the data were processed

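The authors deposited 1 table of log2 values per probe set and array (54675 probe sets, 6 arrays, lowest 0.868, highest 13.8). The scale was read from the values. Partek Genomics Suite is the software of the methods. MAS5 and RMA stand in the submitters' processing notes, but their version and role are not given in the sources used here, and the upper percentiles differ between arrays. No further normalisation was applied. Without 62 control probe sets, 54613 were fitted as Vorinostat minus DMSO by lmFit and eBayes of limma 3.58.1 in R 4.3.3, with Benjamini-Hochberg adjustment. Of these, 41091 named 1 gene, 1801 several and 11721 were unnamed here. The fit had to return known changes in simulated data of small noise, which does not show its power on these arrays. The probe set with the highest mean stood for a gene. For 2 probe sets that also name another gene, no member value was taken.

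The members and all gene lists were chosen with earlier results of these data known. Values on every array were given for members with a group mean above 3, for the transcription factors and for the 6 smallest p-values, and others were added as differences after their values were seen. The level of 3 was chosen likewise.

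Deviations from the group mean correlated over probe sets at 0.874, 0.599 and 0.672 for numbers 1, 2 and 3. Each was above 0.1, so same-numbered arrays were set beside each other as pairs, while the main fit was unpaired. This rule cannot tell numbers 2 and 3 apart. Vorinostat 2 and DMSO 3 correlated at 0.695, and Vorinostat 3 and DMSO 2 at 0.594. Only the number 1 arrays correlated negatively with the arrays of other numbers. An exact permutation test, whose smallest two-sided p is 0.1 here, was not used. The number of arrays limits the precision. Alternatives were the replicate block, quantile normalisation, centring, a filter on dim probe sets, the methods' t-test, the mean of a gene's probe sets and leaving out arrays.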

Additional observations from a re-analysis of the deposited data

How the results depend on the processing

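No member passed an adjusted p under 0.05 by limma in any alternative. The study's threshold was passed by 1 member with the replicate block and by 1 after quantile normalisation, UBE2L6 both times (quantile: log2 fold change 1.81, unadjusted p = 0.0254), and by 0 in the other alternatives. The block changed no other call of a member. The median log2 fold change of the members ranged between -0.13 (without Vorinostat replicate 1) and 1.20 when 1 array was left out. Members whose groups did not overlap with Vorinostat higher numbered 0 under the filter on dim probe sets, which kept 6 of the 39 members, 3 to 9 with 1 array left out, and 10 without both number 1 arrays. Over all genes these shares were 0.385% under the filter, 3.85% to 10.2% with 1 array left out and 15.5% (members 25.6%) without both number 1 arrays. The 9 members came without DMSO replicate 1 (23.1%, all genes 7.02%) and 4 without Vorinostat replicate 1 (10.3%, all genes 10.2%). In the lower direction they numbered 0 to 3 with 1 array left out (all genes 4.03% to 10.8%) and 4 without both (10.3%, all genes 17.5%). Members of the same sign in all numbers fell to 1 higher under the filter, and 1 was lower with the mean of a gene's probe sets. In number 2, members over 2-fold higher numbered 2 after quantile normalisation (6.38% of all genes) and 8 after centring (19% of all genes). In number 3, it was 1 after quantile normalisation (6.01% of all genes). Centring moved the median of all genes to 0.19, 0.72 and -0.30 in numbers 1, 2 and 3. In number 1 the count was 24, 30 and 25 with quantile normalisation, centring and the mean of probe sets. The shares of all genes were 1.54%, 4.41% and 1.65%. Above a level of 4 on Vorinostat replicate 1 alone stood 19 members, and the share of all genes was not computed for that level. Some of these counts were chosen after seeing the data.

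Without Vorinostat replicate 1, the log2 fold change turned negative for 11 of the 23 members given by array. That fit kept the bright DMSO replicate 1 (8645 probe sets above 3) against the dimmer Vorinostat replicates 2 and 3. With 1 array left out, the log2 fold change ranged between -1.37 and 1.56 for BST2, -1.23 and 2.53 for CMPK2, -0.37 and 3.25 for IFIT1, -0.16 and 2.96 for IFIT3, -0.17 and 2.32 for ISG15, -0.32 and 2.37 for MX1, -0.22 and 0.94 for PARP14, -0.31 and 2.34 for SAMD9, -0.0473 and 1.20 for SAMD9L, -0.92 and 1.81 for SP110 and -1.35 and 1.82 for XAF1. The lowest value was that without Vorinostat replicate 1 in each of them. BST2 also turned negative without DMSO replicate 2 or 3, and XAF1 without DMSO replicate 2. Without both number 1 arrays the value was -0.11 for BST2, -0.11 for IFIT1, -0.15 for MX1, -0.0937 for PARP14, -0.15 for SP110 and -0.13 for XAF1. It was positive for the rest of the 11, at 0.18 for CMPK2, 0.16 for IFIT3, 0.0847 for ISG15, 0.11 for SAMD9 and 0.10 for SAMD9L. The causes were not tested.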

Other observations

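Other genes stood beside the members among the largest differences of replicate number 1, and were picked out after their values were seen. CXCL11, a chemokine that interferon induces, had 5.42, 1.58 and 1.48 with Vorinostat, against 1.79, 1.96 and 1.59 with DMSO. PLSCR1, a phospholipid scramblase that interferon induces, had 8.08, 2.09 and 2.92 against 4.61, 3.03 and 2.62. Genes of other kinds stood there as well. The secreted IGFBP5, which binds insulin-like growth factors, had 5.87, 1.598 and 1.71 against 1.73, 1.62 and 1.34, and MMP1, a collagenase, had 4.82, 1.25 and 1.43 against 1.48, 1.37 and 1.53. In each of these genes only Vorinostat replicate 1 stood apart from the other 5 arrays, except PLSCR1, for which DMSO replicate 1 was also high. TCN1, a vitamin B12 carrier of granulocytes, differed from them in that Vorinostat was over 2-fold higher in number 3 as well, with 8.08, 3.003 and 4.23 against 4.23, 2.07 and 1.84.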
